A study of Mus musculus with 2 samples.

Results

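Genes that keep endogenous retroviruses and other retroelements silent in mouse cells were examined for H4K12la, which is lactylation of lysine 12 in the tail of histone H4. The 10 genes were Zfp809, Trim24, Trim28, Trim33, Setdb1, Atf7ip, Mphosph8, Atrx, Daxx and Hells, of 21887 protein-coding genes in the annotation. They were picked with the peaks of these samples in view, because Zfp809 and Trim24 carry strong peaks at a gene end in the lactate sample and none in its control. The presence of those peaks is therefore part of the choice, and every value from the comparison of the samples is given as a description with no test. For each gene, all peaks that met the annotated span plus 10 kb on either side were collected. At the rule's edge, the farthest peaks kept were control peaks 7929 and 8391 bp from Setdb1, with 25 and 17 reads at the summit. The nearest left out lay on the other side of Setdb1, at 10335 bp (lactate) and 10358 bp (control), with 12 and 13 reads. These peaks overlap each other, so a position called in both samples lies just beyond the edge.

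The mark was profiled by CUT&Tag, in which an antibody guides a transposase that cuts and tags the DNA beside the mark. The cells were Neuro2a, an established mouse neuroblastoma line, grown in serum-containing medium on collagen I. The NaCl group was 1 library from cells given NaCl, and the lactate group was 1 library from cells given 25 mM lactate, both made with the anti-H4K12la antibody; the duration of treatment is not given in the sources used here. With 1 library of 1 culture per group there is no replicate check, and the intervals below cover counting error only. The NaCl list held 46592 peaks and the lactate list 39768, and the genome-wide backgrounds of 2.96 and 3.06 overlapping reads put the depths within 3.43% of each other. The lowest summit that received a call was 11 reads in each library, and no peak was narrower than 100 bp. Of 6 genes expressed in sympathetic neuroblasts, Isl1 had a gene-end peak in both lists, Phox2a and Elavl4 in the lactate list, Hand2 in the NaCl list, and Gata2 and Gata3 in neither. Peak calls are not a measure of expression.

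Retroelement silencing starts with KRAB zinc finger proteins such as ZFP809, which read DNA sequence and recruit TRIM28. TRIM28 brings in the H3K9 methyltransferase SETDB1, whose partner ATF7IP stabilises it in the nucleus. The HUSH complex, which contains MPHOSPH8, reads H3K9 methylation and spreads it over young elements. ATRX and DAXX deposit the histone variant H3.3 at heterochromatin, and HELLS is a chromatin remodeller needed for DNA methylation of repeats. In neural cells this machinery is known for restraining endogenous retroviruses. Acylation of the histone H4 tail is generally found at active gene starts, so peaks at the starts of these genes bear on the silencing genes themselves, not on the elements they repress.

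The promoter windows of the 4 genes whose start lay in a lactate peak and that had no NaCl gene-end peak are shown first. They are followed by those of Trim28, where the lists share a peak upstream but not at the start, and Hells, where they share the start peak. Each runs 5′ to 3′ from 250 bases before to 50 after the transcription start in RefSeq on GRCm38.p6, the assembly named mm10. Capitals mark matches to the short motifs described further on. Zfp809 lies at chr9:22225453-22225752 (plus strand), Trim24 at chr6:37870561-37870860 (plus), Atf7ip at chr6:136518601-136518900 (plus), Atrx at chrX:105929323-105929622 (minus), Trim28 at chr7:13023902-13024201 (plus) and Hells at chr19:38930740-38931039 (plus).
Zfp809: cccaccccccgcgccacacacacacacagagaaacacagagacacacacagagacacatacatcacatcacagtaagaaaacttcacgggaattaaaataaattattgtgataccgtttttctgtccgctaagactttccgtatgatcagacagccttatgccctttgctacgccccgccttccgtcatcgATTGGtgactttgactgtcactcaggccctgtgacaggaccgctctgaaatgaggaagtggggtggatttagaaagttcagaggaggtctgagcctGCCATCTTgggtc
Trim24: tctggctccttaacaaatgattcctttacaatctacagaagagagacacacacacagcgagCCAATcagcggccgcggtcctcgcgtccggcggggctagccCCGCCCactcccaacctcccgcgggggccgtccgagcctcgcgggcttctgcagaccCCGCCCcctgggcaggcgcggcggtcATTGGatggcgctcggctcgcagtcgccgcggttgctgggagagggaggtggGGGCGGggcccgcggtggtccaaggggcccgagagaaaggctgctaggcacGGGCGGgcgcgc
Atf7ip: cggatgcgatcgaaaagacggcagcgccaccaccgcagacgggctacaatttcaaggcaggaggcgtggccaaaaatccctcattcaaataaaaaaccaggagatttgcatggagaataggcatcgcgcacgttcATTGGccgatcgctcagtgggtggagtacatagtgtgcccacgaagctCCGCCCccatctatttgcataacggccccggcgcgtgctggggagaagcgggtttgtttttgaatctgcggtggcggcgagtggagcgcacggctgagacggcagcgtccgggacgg
Atrx: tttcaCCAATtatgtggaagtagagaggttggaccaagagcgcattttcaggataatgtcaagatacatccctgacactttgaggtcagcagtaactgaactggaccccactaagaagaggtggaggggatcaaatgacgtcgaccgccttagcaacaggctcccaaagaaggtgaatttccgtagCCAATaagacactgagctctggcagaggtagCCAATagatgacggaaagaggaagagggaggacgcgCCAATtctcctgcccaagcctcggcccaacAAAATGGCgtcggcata
Trim28: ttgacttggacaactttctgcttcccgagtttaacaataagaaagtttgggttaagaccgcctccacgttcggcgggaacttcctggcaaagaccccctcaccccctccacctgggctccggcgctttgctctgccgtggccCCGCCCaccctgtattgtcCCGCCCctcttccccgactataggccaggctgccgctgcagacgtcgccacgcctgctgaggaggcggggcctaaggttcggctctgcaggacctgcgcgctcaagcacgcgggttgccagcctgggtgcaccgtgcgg
Hells: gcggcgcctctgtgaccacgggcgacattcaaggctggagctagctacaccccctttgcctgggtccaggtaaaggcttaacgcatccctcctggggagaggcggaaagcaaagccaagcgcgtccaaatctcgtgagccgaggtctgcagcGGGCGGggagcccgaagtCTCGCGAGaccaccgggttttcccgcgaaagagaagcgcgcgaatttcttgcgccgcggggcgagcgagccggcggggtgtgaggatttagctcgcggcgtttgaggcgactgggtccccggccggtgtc
The lactate peak covered bases 154 to 300 of the Zfp809 window, 1 to 294 of Trim24, 157 to 300 of Atf7ip, 147 to 300 of Atrx, 39 to 300 of Trim28 and all of the Hells window. The NaCl list covered 0 bases of the first 5 and bases 1 to 257 of Hells.

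All 10 genes had a lactate peak within 1 kb of an annotated gene end, beside 44.8% of all protein-coding genes. In the NaCl list 5 of the 10 had such a peak, beside 32.0% of all genes. By this window 5 genes were called in both lists (28.6% of all genes), 5 in the lactate list alone (16.2%) and 0 in the NaCl list alone (3.34%). The lactate-only genes were Zfp809, Trim24, Trim33, Atf7ip and Atrx. Nothing is read from these counts, since the choice of genes used the same calls. Trim33 counts as lactate-only through the window alone: the NaCl list has a peak there that begins 1103 bp inside the gene. In the 9 genes with a promoter entry, the lactate gene-end calls included 1 near a transcription start each time, and such a start peak was found for 93.9% of all genes with a lactate gene-end peak and an entry. The start itself lay inside a lactate peak in each of these 9 genes, and inside a NaCl peak at Setdb1, Mphosph8 and Hells, beside 32.2% (lactate) and 17.6% (NaCl) of all genes with an entry. All 5 genes with a NaCl gene-end peak had one within 1 kb of a transcription start, beside 91.0% of such genes in the NaCl list. A −log10 q of at least 5 was reached by the best lactate gene-end peak of 7 genes (24.1% of all genes) and by the best NaCl one of 0 genes (8.52%). Daxx is among the 7 only through a peak beyond its far end (6.56), which is shared with a neighbour. Its lactate start peaks had 4.31 and 2.18. Zfp809, Trim24, Atf7ip and Atrx, 4 of the 10, reached it while lacking a NaCl gene-end peak (4.25%).

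**Figure D1:**
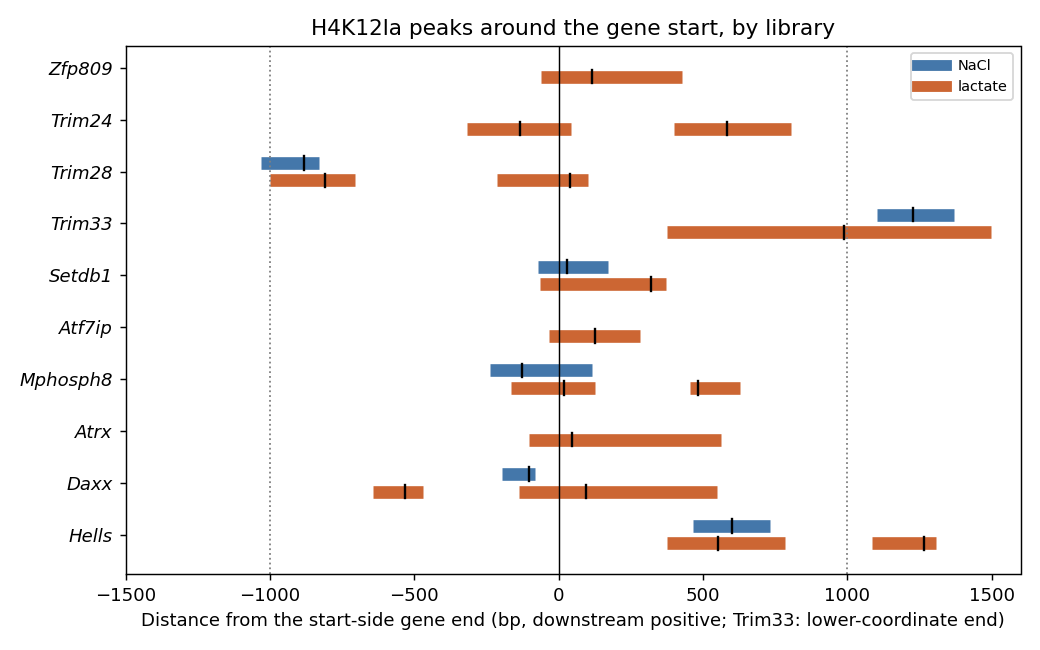
Peaks of both lists around the start-side end of each gene, with distance in bp on the x axis and 1 row per gene. Bars span the peaks, black ticks mark summits, and dotted lines mark 1 kb. Zfp809, Trim24, Atf7ip and Atrx have lactate bars only, and the Trim33 bars overlap beyond the 1 kb line. Trim33 is drawn from its lower-coordinate end.

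The sequence reader of the set, Zfp809, encodes a KRAB zinc finger protein that binds the primer-binding site of certain retroviruses. The gene spans chromosome 9, 22225667 to 22254117. Its lactate start peak (22225606 to 22226095) was 490 bp wide, from 61 bp before to 428 bp after the annotated gene start. It reached 27 reads at the summit (95% interval 17.8 to 39.3), with the authors' fold at 6.90 and −log10 q at 12.8. The NaCl list had 0 peaks anywhere in the gene or its flanks. Where surroundings are at the genome-wide level, 11 reads sufficed for a NaCl call, so the NaCl signal at this start can lie anywhere up to about that level. A count of 11 reads has itself an interval of 5.49 to 19.7, which overlaps that of the lactate summit. The other lactate peak, 5654 bp beyond the far end of Zfp809, was at the end of the neighbouring zinc finger gene Zfp599 and had 17 reads (9.90 to 27.2).

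The TIF1 family contributes Trim24, Trim28 and Trim33, which share a RING, B-box and coiled-coil module with a PHD finger and bromodomain. Trim24, a bromodomain reader that also restrains retroviral transcripts in liver, had 2 lactate peaks at its start on chromosome 6, at 37870494 to 37870854 and 37871210 to 37871616. The upstream peak was 361 bp wide with 27 reads (17.8 to 39.3), and its summit lay 134 bp before the start. The downstream peak was 407 bp wide with 19 reads (11.4 to 29.7), and its summit lay 583 bp after the start. A gap of 355 bp separated them. The only NaCl peak at Trim24 was 107 bp wide, with 12 reads (6.20 to 21.0), 85049 bp into the gene.

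Trim28, the corepressor that KRAB zinc fingers recruit, spans chromosome 7, 13024152 to 13031032. A peak upstream of its start was shared: the NaCl peak had 14 reads (7.65 to 23.5), 882 bp before the start, and the lactate peak 19 reads (11.4 to 29.7), 810 bp before it. These intervals overlap. At the start itself the lactate list alone had a peak, 315 bp wide with 21 reads (13 to 32.1) and its summit at 40 bp. Both positions are also within 1 kb of an end of Gm31649, an overlapping protein-coding locus, so the signal cannot be assigned to either gene. Trim33, a TIF1 member best known as a regulator of SMAD signalling, had its widest peak in the lactate list, 1124 bp with 21 reads (13 to 32.1), from 375 to 1498 bp inside its lower-coordinate end on chromosome 3. The NaCl peak of 266 bp, with 14 reads (7.65 to 23.5), fell wholly inside it.

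Among the H3K9 methylation genes, Setdb1, the methyltransferase itself, was called at its start in both lists. Its NaCl peak had 14 reads (7.65 to 23.5) over 241 bp, and its lactate peak 16 reads (9.15 to 26.0) over 439 bp, the closest pair of summit counts at any start in the set. The lactate summit lay 319 bp inside the gene and the NaCl summit 30 bp inside it. Atf7ip, the cofactor of SETDB1, had a start peak in the lactate list alone, on chromosome 6 at 136518757 to 136519071, 315 bp wide with 19 reads (11.4 to 29.7) and its summit at 126 bp. The non-coding gene Gm44140 ends within 1 kb of the same peak.

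The HUSH subunit gene Mphosph8, which encodes a chromodomain reader of H3K9 methylation, was called at its start in both lists on chromosome 14. The NaCl peak had 15 reads (8.40 to 24.7), and its summit lay 126 bp before the annotated start. The lactate peak had 23 reads (14.6 to 34.5), and its summit lay 20 bp after it. A second lactate peak with 16 reads (9.15 to 26.0) stood 482 bp into the gene. The pseudogene Gm4032 ends within 1 kb of these peaks.

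The H3.3 chaperone pair was split between the classes. Atrx, the ATPase, had a single peak in either list, at its start on chromosome X in the lactate library (105928809 to 105929476), 668 bp wide with 17 reads (9.90 to 27.2). Daxx, the H3.3 chaperone, was called at its start in both: 12 reads in the NaCl library (6.20 to 21.0) over 117 bp, and 24 reads in the lactate library (15.4 to 35.7) over 687 bp. The shared stretch was 58 bp, which is 49.6% of the NaCl peak and 8.44% of the lactate peak. The lactate list added a peak upstream with 19 reads (11.4 to 29.7), 531 bp before the start, and 1 beyond the far end with 29 reads (19.4 to 41.6). The start peaks lie within 1 kb of an end of the non-coding gene BC051226. The far peak is also within 1 kb of Zbtb22 and cannot be assigned to either gene.

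Hells, the remodeller, had its shared peak on chromosome 19 at 552 bp from the annotated gene end in the lactate library and 600 bp in the NaCl library. The transcription start of the RefSeq promoter entry lies farther inside the gene, so these summits are 176 and 128 bp upstream of that start. The lactate summit had 25 reads (16.2 to 36.9) and the NaCl summit 14 (7.65 to 23.5).

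Set side by side, the 5 genes called in both lists each had a higher best gene-end summit in the lactate library. The same held for 94.6% of the 6266 genes called in both, so the count of 5 is near the background and is not a result about these genes. At the overlapping start peaks of the 5 genes, the summit ratio of lactate over NaCl ran from 1.14 at Setdb1 to 2 at Daxx, and the intervals of the paired counts overlapped in each. More than 1 lactate peak at the same gene end was found for Trim24, Trim28, Mphosph8 and Daxx, 4 of 10 genes, beside 17.7% of all genes with a lactate gene-end peak. In the NaCl list 0 of 5 genes had more than 1, beside 11.5%. The gaps between the paired lactate peaks were 355 bp at Trim24, 491 bp at Trim28, 330 bp at Mphosph8 and 331 bp at Daxx. Surroundings also set what a call needs. Had the NaCl surroundings been as rich as those in the lactate library, scaled for depth, a NaCl call would have needed 16 reads at the Trim28 start, 15 at the second Mphosph8 peak and 17 at the upstream Daxx peak. The lower bounds of these lactate peaks, 13, 9.15 and 11.4 reads, are under those limits. The premise was not met at the shared start peaks nearby, so the limits are likely too high. There the NaCl background was 2.96 overlapping reads at Trim28, 2.96 at Mphosph8 and 3.24 at Daxx. In the lactate library it was 5.82, 5.10 and 6.60. NaCl calls were made there with 14, 15 and 12 reads. The lower bound of Atrx, 9.90, is under the 11 reads that suffice at the genome-wide level. The uncalled NaCl counts at the lactate-only peaks are unknown, so no lactate-only peak is shown here to differ between the libraries. At Hells a second lactate peak followed after 303 bp, just beyond the 1 kb window.

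**Figure D2:**
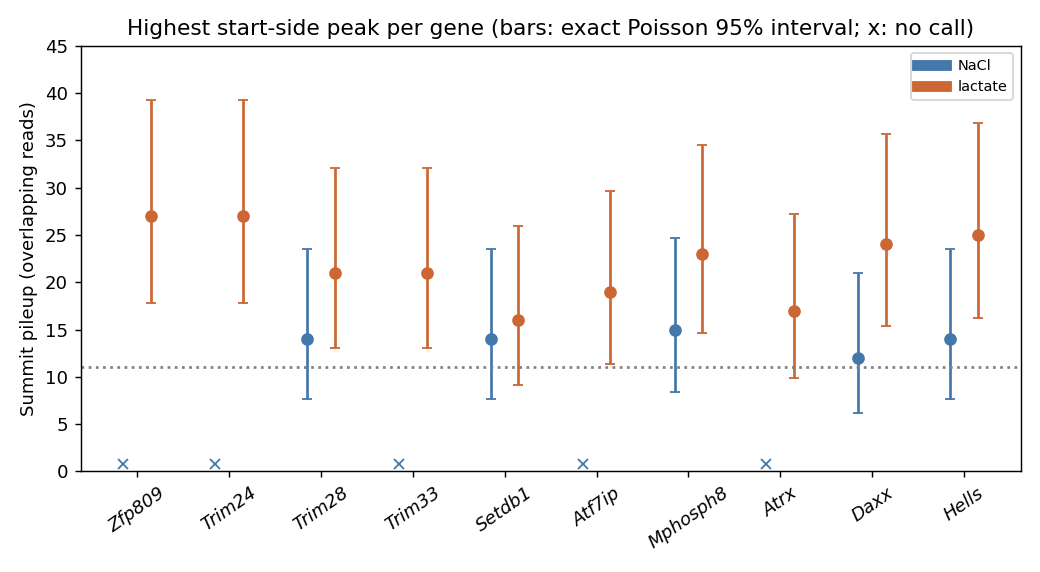
Summit pileup in overlapping reads (y axis) of the highest start-side peak within 1 kb, per gene and library. Points are single libraries, bars are exact Poisson 95% intervals, crosses mark no call, and the dotted line marks the lowest called summit of 11 reads. Lactate points run from 16 at Setdb1 to 27 at Zfp809 and Trim24, NaCl points from 12 to 15, and the paired intervals overlap.

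Fold enrichment gave another order than the summits. At Trim28 the shared upstream peak had a fold of 3.79 in the NaCl list and 2.93 in the lactate list, although the lactate summit held more reads. Setdb1 (3.79 against 3.29) and Mphosph8 (4.04 against 3.93) went the same way, and Daxx (3.07 against 3.29) and Hells (3.19 against 3.62) the other. The fold is relative to a local background, and that background differed between the libraries. Backgrounds above the genome-wide level moved in steps of 0.02, the share that 1 read extended to 200 bp has in a 10 kb window. The extension and window are inferred from that step, since the settings are not given. On this reading the backgrounds convert to whole numbers of reads around the peak, its own reads included. Where the surroundings are poorer than the genome average, the list shows the genome-wide level, and the count is known only as at most 147 reads in the NaCl and 153 in the lactate library.

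Converted in this way, the surroundings of the shared peak at Trim28 held 148 NaCl reads (125 to 174) and 291 lactate reads (259 to 326). At Daxx the counts were 162 (138 to 189) and 330 (295 to 368), and at Hells 185 (159 to 214) and 309 (276 to 345). At Mphosph8 they were at most 147 and 255 (225 to 288), and at Setdb1 at most 147 and 208 (181 to 238). The intervals of the lactate and NaCl counts did not overlap at Trim28, Daxx and Hells, and at Mphosph8 and Setdb1 the lactate lower bounds were above the NaCl maximum. The windows are centred on each library's own summit, so they do not cover quite the same bases. Over all genes called in both lists, 94.7% had more reads around the lactate peak, so the direction is not particular to the 5 genes. The share of all genes with separated intervals was not counted.

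The lactate-only genes differed from this picture. The surroundings of the start peaks of Zfp809, Atf7ip and Atrx were at the genome-wide level, at most 153 reads, and those of Trim24 held 163 reads (139 to 190) around the upstream peak. Trim33, with 263 reads (232 to 297), was closer to the shared genes. Among all 3537 lactate-only genes, 15.9% had their best peak in surroundings at that floor, and the median was 231 reads. High fold at Zfp809 and Trim24 thus goes with a low local background as well as with 27 summit reads. Zfp809 and Trim24 were chosen for strong lactate-only peaks at a gene end, so their high fold is not independent of the choice.

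**Figure D3:**
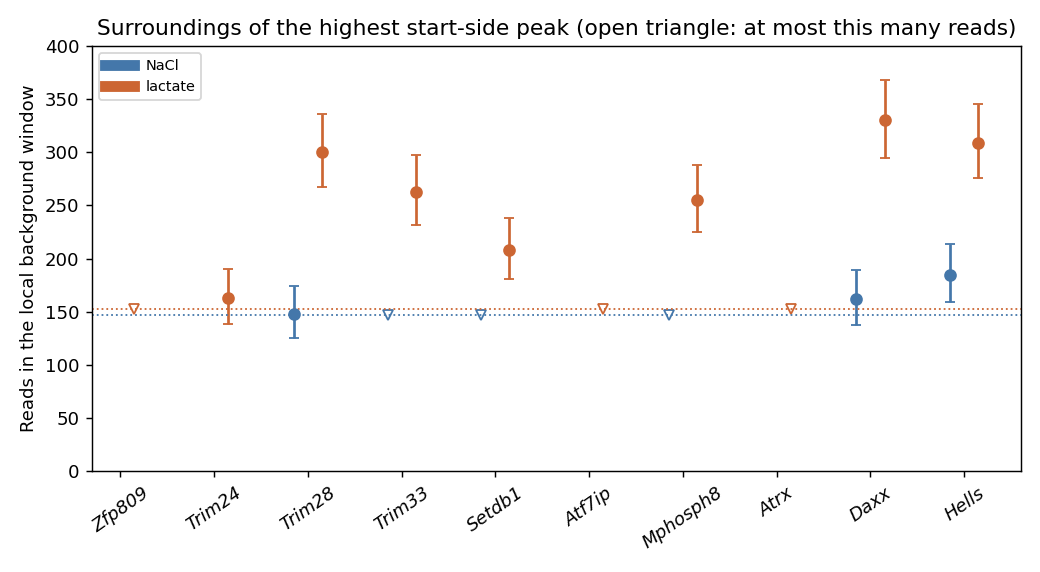
Reads in the local background window around the highest start-side peak within 1.5 kb of each gene's start (y axis), with exact Poisson 95% intervals. Open triangles are upper limits where the window is at or below the genome-wide level, drawn as dotted lines at 147 reads for NaCl and 153 for lactate. Trim28, Mphosph8, Daxx and Hells lie at 255 to 330 in the lactate library, while Zfp809, Atf7ip and Atrx sit at the floor.

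In all, the 10 genes and their flanks held 13 NaCl peaks covering 2930 bp and 29 lactate peaks covering 10140 bp. Widths had a median of 222 bp (107 to 355) in the NaCl list and 292 bp (117 to 1124) in the lactate list. Of the NaCl peaks 9, or 69.2%, overlapped a lactate peak, and of the lactate peaks 8, or 27.6%, overlapped a NaCl peak. Over the whole lists the shares were 37.7% and 43.4%. The overlapping NaCl peaks were the 5 start peaks, the Trim33 peak and 3 flank peaks. A −log10 q of at least 5 was reached by 2 NaCl peaks, both in the flanks, and by 10 lactate peaks, 8 of them at gene ends. The shares of all peaks that reach it were not counted, so nothing is read from these counts.

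Inside the genes and away from their ends, lactate peaks were found in 4 of the 10 genes (31.2% of all genes had one) and NaCl peaks in 3 (28.7%). The 10 lactate body peaks had a median of 15 reads (11 to 23), and 0 of them overlapped a NaCl peak. The overlapping share among all lactate body peaks was not counted, so nothing is read from that 0. Hells carried 4 of these, with 21 reads nearest the start and 15, 12 and 11 farther in. Mphosph8 carried 2, with 21 and 23 reads, beside 23 at its start, in surroundings of 340 and 358 reads. Atf7ip had 2 in each list, with 16 and 15 reads in the lactate and 14 and 14 in the NaCl library, all at different places. Trim33 had 2 in the lactate list with 12 and 14 reads. Apart from those of Mphosph8 and the Hells peak next to its start, the body summits ran from 11 to 16 reads, close to the calling limit.

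Of the 8 flank peaks, 6 lay within 1 kb of an end of another protein-coding gene. At the overlapping ends of Anxa9 and Cers2, the ceramide synthase gene that adjoins Setdb1, the lactate list had 1 peak of 974 bp with 39 reads (27.7 to 53.3). The NaCl list had 2 narrower peaks inside it, with 17 reads (9.90 to 27.2) and 25 reads (16.2 to 36.9). Beyond Trim28, a peak at the facing ends of Chmp2a and Ube2m had 25 reads (16.2 to 36.9) in both libraries, the single shared position with equal summits. Its fold was nonetheless 4.69 in the NaCl list and 2.55 in the lactate list, with 227 reads around it (198 to 259) against 459 (418 to 503). Beyond Hells each list had a peak with 14 reads, and the 2 lay side by side without overlap. The lactate peak ended at 38973826 and the NaCl peak began at 38973870.

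**Figure D4:**
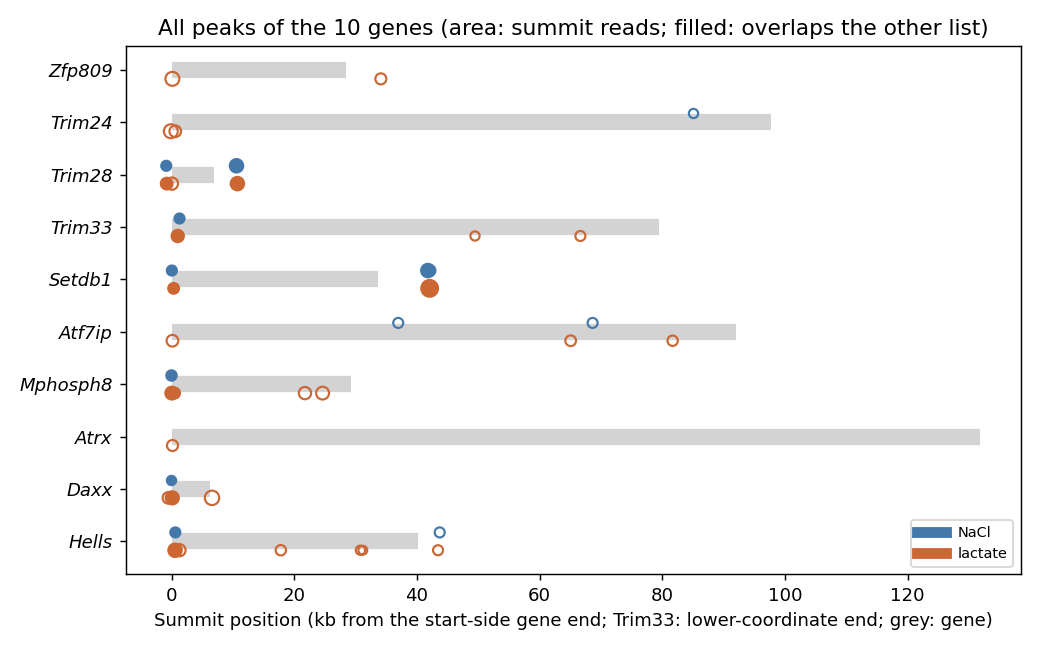
All 42 peaks of the 10 genes by summit position in kb from the start-side gene end (x axis), 1 row per gene, with NaCl above and lactate below. Grey bars are the annotated genes, circle area grows with summit reads (11 to 39), and filled circles overlap a peak of the other list. Filled circles stand at gene starts and in the flanks, and the circles farther inside the genes are open. Trim33 is drawn from its lower-coordinate end.

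The promoter windows were compared for base composition, which the choice of genes did not use. The 9 windows found (Trim33 had no entry) held a median of 28 CpG dinucleotides, against 13 over 17492 protein-coding genes. Genes called in both lists had a median of 22, lactate-only genes 20, NaCl-only genes 6 and genes called in neither 5. Zfp809 and Atrx were the poorest of the 9, with 11 CpG each, more than 44.7% of all windows. Hells had 34, Trim24 and Daxx 33 each, Atf7ip 29, Mphosph8 28, Trim28 23 and Setdb1 15. The lactate-only genes thus span the range, with Zfp809 and Atrx low and Trim24 and Atf7ip high.

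**Figure D5:**
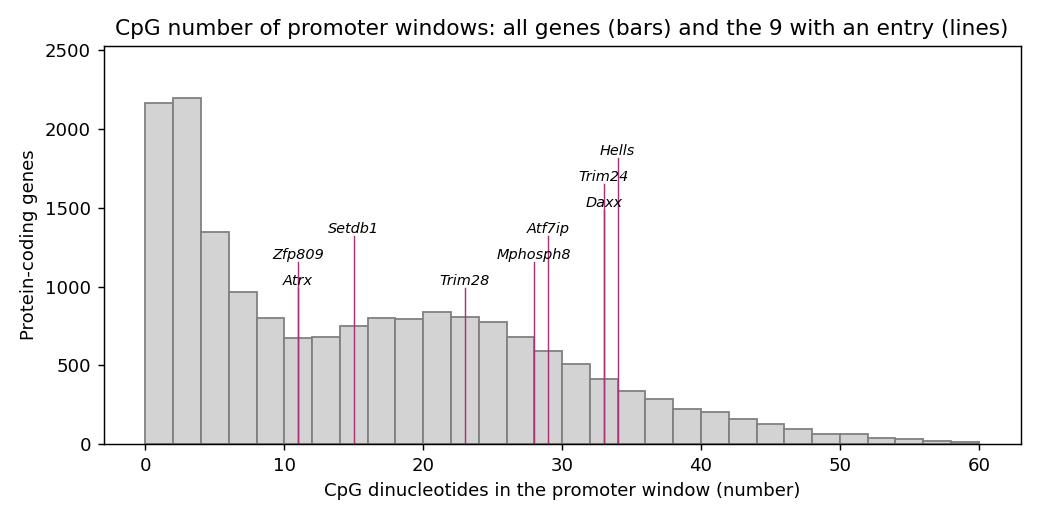
Number of CpG dinucleotides in the promoter windows (x axis), as a histogram of protein-coding genes (y axis, windows with up to 60 CpG) with the 9 silencing genes as labelled lines. Zfp809 and Atrx stand at 11, below the overall median of 13, and Trim24, Daxx and Hells at 33 to 34.

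Motif letters were searched on both strands, with the letters chosen after the sequences had been seen. A CCAAT box, which binds NF-Y (CCAAT, read as ATTGG on the other strand), was found in 7 of 9 windows and in 39.2% of all windows. Zfp809 has it at bases 192 to 196 and Atf7ip at bases 136 to 140. Trim24 has it in 2 places and Atrx in 4. A GC box of the Sp1 type (GGGCGG, or CCGCCC) was in 7 of 9 windows and 46.3% of all, with 4 matches in Trim24 and 0 in Zfp809 and Atrx. Letters of the YY1 type (AANATGGC) were in Zfp809, Atrx and Daxx, 3 of 9, and in 6.65% of all windows. In Zfp809 they stand at bases 288 to 295 and in Atrx at bases 284 to 291, both inside the lactate peak just after the start. The palindrome CTCGCGAG was in Hells alone, at bases 171 to 178, and in 1.31% of all windows. ETS-type letters (CCGGAAG) were in Setdb1 and Daxx, beside 11.9% of all. No window held TATAAA (13.3% of all), CACGTG (7.91%) or TGACGTCA (2.33%). In Daxx 2 GC boxes share a base, and another shares a base with a YY1-type match. These are letter matches, not measured binding. The 9 windows all lie at a called start and had a median of 28 CpG, against 13 over all windows. Shares among called genes alone were not counted, so nothing is read from the motif counts.

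Of 36 other genes of retroelement silencing and heterochromatin, listed by role, 18 had a gene-end call in both lists (50%), 7 only in the lactate list (19.4%), 1 only in the NaCl list (2.78%) and 10 in neither (27.8%). The shares of all protein-coding genes were 28.6%, 16.2%, 3.34% and 51.9%. Of the 18 called in both, 17 had the higher summit in the lactate library, which is near the 94.6% of all genes called in both. For Morc2a, Yy1, Uhrf1 and Suv39h2 the best NaCl and lactate peaks lay at different ends of the gene. Their summits are therefore not from the same place. The exception, named after its values were seen, was the zinc finger gene Zfp932, with 27 reads in the NaCl (17.8 to 39.3) and 25 in the lactate library (16.2 to 36.9). The HP1 genes, whose products bind methylated H3K9, were called in both in 3 of 3 cases. Cbx1 had 18 reads in the NaCl (10.7 to 28.4) and 20 in the lactate library (12.2 to 30.9), with overlapping intervals. Cbx3 had 18 reads in the NaCl (10.7 to 28.4) and 43 in the lactate library (31.1 to 57.9), with intervals that did not overlap. Cbx5 had 15 (8.40 to 24.7) and 36 (25.2 to 49.8), again without overlap. Cbx3, Cbx5, Ehmt1, Suv39h2, Smarcad1 and Mov10 were named for the highest summits among the genes of this list called in both. They were thus picked on a value compared here. The share of all genes with such separated intervals was not counted, and nothing is read from the separation. The Cbx3 and Cbx5 peaks also lie at the end of a neighbour, Hnrnpa2b1 and Hnrnpa1.

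Lysine methyltransferase genes followed. Ehmt1, which encodes an H3K9 dimethyltransferase, had 20 reads in the NaCl (12.2 to 30.9) and 36 in the lactate library (25.2 to 49.8). Suv39h2, another H3K9 methyltransferase gene, had 16 (9.15 to 26.0) and 36 (25.2 to 49.8), with the highest peaks at different ends of the gene. An end of the neighbouring gene Dclre1c also lies near a Suv39h2 peak. The remodeller gene Smarcad1 had 21 (13 to 32.1) and 36 (25.2 to 49.8), and the helicase gene Mov10, which restricts retroelements, 29 (19.4 to 41.6) and 36 (25.2 to 49.8). The intervals overlapped for Ehmt1, Suv39h2, Smarcad1 and Mov10.

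The lactate-only genes of this list were led by Morc3, a heterochromatin ATPase gene, with 32 reads (21.9 to 45.2) and a −log10 q of 11.7. Chaf1a and Chaf1b, subunits of the histone chaperone CAF-1, had 24 (15.4 to 35.7) and 23 reads (14.6 to 34.5). Ehmt2 had 20 (12.2 to 30.9), the nucleotide hydrolase gene Samhd1 20 (12.2 to 30.9), Suv39h1 17 (9.90 to 27.2) and the de novo DNA methyltransferase gene Dnmt3b 16 (9.15 to 26.0). Morc3 and Chaf1b reached a −log10 q of 5. Zfp42, a gene of pluripotent cells, was the NaCl-only member, with 16 reads (9.15 to 26.0). The calls depend on where the annotation places gene ends. Within 1 kb of a transcription start, among 33 genes with a promoter entry, 18 had a call in both lists, 11 only in the lactate list, 1 only in the NaCl list and 3 in neither. The shares of all genes with an entry were 30.4% in both, 16.4% only in the lactate list and 2.69% only in the NaCl list. The HUSH gene Tasor and the imprint-protecting zinc finger gene Zfp57 then had calls in both lists, and Dnmt1, Dnmt3a and H3f3b in the lactate list only. Uhrf1 moved from a call in both lists to the lactate list only. Tasor, Zfp57, Dnmt1, Dnmt3a, H3f3b, Uhrf1, Morc2a and Yy1 are named after their values were seen, as is Cbx1.

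By summit reads and width together, the genes most like Zfp809 among lactate-only genes with no NaCl peak within 10 kb were Metap1, with 28 reads over 490 bp, and Cd24a, with 27 reads over 517 bp. Their folds were 4.72 and 4.01, below the 6.90 of Zfp809. The upstream Trim24 peak had 27 reads over 361 bp and a fold of 6.57. The genes most like it were Cd320 (27 reads over 356 bp, fold 4.35) and Patz1 (28 reads over 378 bp, fold 3.27). Trim24 itself has a NaCl peak inside the gene, so it would not meet the condition set for the genes compared with it. Zfp809 and Trim24 were chosen for strong peaks, so their higher folds are not independent of the choice. The likeness rests on the 2 measures of a single lactate library.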

How the data were processed

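H4K12la CUT&Tag was done on 1 NaCl and 1 lactate library of Neuro2a cells. The submitters' processing notes name BWA, MACS2 and deepTools and the build mm10. The sources used here give no versions, settings or control library. The authors called peaks in each library by itself. The deposited fold is the ratio of summit pileup to local background, each plus 1. Each summit also has a deposited −log10 p, a −log10 q and a deposited score of 10 times that q value; the lowest −log10 q of 1.30 is a q of 0.05.

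Peaks on the autosomes, X and Y were kept. Solving fold and Poisson p together gave whole-number pileups for 46591 of 46592 NaCl and all 39768 lactate peaks, at a tolerance of 0.001 in −log10 p; the steps were tested on simulated data. Samples were grouped by the treatment label. Gene spans, strands and promoters came from RefSeq on GRCm38.p6; 9 of 10 genes matched a promoter entry, and the most upstream start was used. Overlap was at least 1 bp. Summit intervals are exact Poisson at 95%, for counting error; PCR copies are not told apart. Genes and lists were chosen with earlier results of these data known, and the named genes are all 10, other genes picked by a rule on calls, summit reads, width and neighbouring ends, and a few that the text says were named after their values were seen. Alternatives were stricter and equal-length lists, other windows, flanks and overlaps. Python 3.11.15, numpy 2.4.6, pandas 2.3.3 and scipy 1.17.1 were used.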

Additional observations from a re-analysis of the deposited data

How the results depend on the processing

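No paired analysis was possible because each group has 1 library, and no replicate could be left out. Zfp809, Trim24, Atf7ip and Atrx were lactate-only under all 5 alternatives run on the gene-end calls, and none of the 10 genes was NaCl-only under any. Trim33 was called in both with a 3 kb window, Trim28 was lactate-only with 500 bp, and Daxx was lactate-only with lists of equal length. At a −log10 q of at least 5, 0 of the 10 genes were called in both; 5 of the 36 wider genes were, and over all genes 1666 had calls in both and 204 were NaCl-only. That threshold left 2 NaCl peaks (1 overlapping) and 10 lactate peaks (1 overlapping) at the 10 genes. Over all genes, 1105 were NaCl-only with a 3 kb window. Within the spans alone there were 7 NaCl peaks, and 4 NaCl and 5 lactate peaks overlapped. With reciprocal overlap of 50%, 5 NaCl and 5 lactate peaks overlapped, and 3 lactate summits fell inside a NaCl peak. Windows at transcription starts, added after the data were seen, gave 11 lactate-only genes in the wider list. The cause of these moves was not tested, apart from fewer peaks remaining under the stricter threshold and the narrower span. Depth limits every call near 11 reads.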
